A study of Mus musculus with 10 samples.

Results

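The interleukin-1 (IL-1) family and inflammasome genes described here were 10 of the 17279 genes in the deposited count table of sorted intestinal macrophages. They were the cytokines Il1a, Il1b and Il18, the IL-1 receptor antagonist Il1rn, the decoy receptor Il1r2, the receptor accessory protein Il1rap, the IL-18 binding protein Il18bp, the sensor Nlrp3, the protease Casp1 and the adaptor Pycard. The genes were taken as a list of symbols that used no limit on measured values, although earlier results of these data were known when the list was made. All 10 were found, and all 10 were among the 16949 genes that passed the low-count filter. RNA sequencing compared macrophages of the small intestinal lamina propria from 5 sham-operated libraries with those from 5 libraries made after permanent middle cerebral artery occlusion (pMCAO), a model of ischaemic stroke without reperfusion, both at 24 h after surgery. The mice of both groups were labelled C57BL6/J, and in both the cells were sorted by flow cytometry as CX3CR1-GFP+ from peeled mucosa. Both groups therefore carried the reporter, whose allelic state was not given, and a gate on Cx3cr1 can also hold monocytes and dendritic cells. Age, sex and collection day were not given, and the library names mark replicate 1 of each group as a pool.

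IL-1α and IL-1β are cytokines that act through the same receptor, which needs the accessory protein IL-1RAP to signal through MyD88 and NF-κB. Their action is limited by the receptor antagonist, which occupies the receptor without signalling, and by IL-1R2, which binds IL-1 but does not signal. IL-1β and IL-18 are made as precursors that caspase-1 cuts, and caspase-1 is itself activated on the inflammasome, a complex in which a sensor such as NLRP3 recruits the adaptor ASC, the product of Pycard. In the intestine, resident macrophages are known for making pro-IL-1β in contact with the microbiota, while IL-18 is known as a product of the epithelium as well as of myeloid cells. RNA levels of these genes therefore say nothing of the cutting or release of the proteins.

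Total counts per library ranged from 18894151 to 60665972 in the sham group (median 33913980) and from 6430643 to 28672285 in the pMCAO group (median 11605371). Levels are given below in CPM, counts scaled to library size, with TMM factors that allow for library composition. All 12 macrophage markers were found, and their summed level was 8439 to 18852 CPM in the sham and 9245 to 18290 CPM in the pMCAO group, with the lysozyme gene Lyz2 at 7469 ± 1835 CPM (SD, n = 5) in sham libraries. Of the 11 neutrophil markers 6 were listed, with a summed level of 136 to 599.9 CPM in sham and 189 to 503 CPM in pMCAO libraries, most of it from Mmp9 (239 and 231 CPM) and Csf3r (87.5 and 89.4 CPM). Of the other 4, S100a8 was between 0 and 6.23 CPM and Ngp between 0 and 1.07 CPM. RNA of other cells was present in both groups. The 12 epithelial markers summed to 550.3 to 1197 CPM in sham and 153 to 1429 CPM in pMCAO libraries. The 8 B cell and plasma cell markers summed to 838 to 25181 CPM in sham and 1138 to 29401 CPM in pMCAO libraries, mostly from the immunoglobulin joining chain Jchain, and in replicate 2 of both groups this sum was above that of the macrophage markers. The 12 stromal, endothelial and mast cell markers summed to 1246 to 10826 CPM in sham (median 4013) and 331 to 3704 CPM in pMCAO libraries (median 1034). Most of this came from the mast cell protease Mcpt1, at means of 4387 and 1213 CPM. In sham replicate 5 the sum, at 10826 CPM, was above that of the macrophage markers, at 8439 CPM. Mcpt1 had a log2 fold change of −1.86 (SE 0.68, unadjusted p = 0.0180, adjusted p = 0.922 in edgeR). Over the 12 markers the median was 0.017, with 7 higher and 5 lower. Of the 8 monocyte markers, Plac8 and Vcan had log2 fold changes of −1.08 and −1.47 (unadjusted p = 0.0227 and 0.0450, adjusted p = 0.922 in edgeR). The median of the 8 was −0.19, with 5 lower and 3 higher. Those higher were F13a1 at 1.28 (SE 0.66, unadjusted p = 0.0763 in edgeR), Ccr2 at 0.14 and Ly6c2 at 0.049. Xist, the RNA of the inactive X chromosome, reached 1756 CPM in replicate 5 of the sham group and 4461 CPM in replicate 4 of the pMCAO group, against 1.39 to 4.92 CPM in the other 8 libraries.

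In the comparison of pMCAO with sham libraries, 0 of the 10 genes and 0 of 16949 genes overall (0%) passed an adjusted p of 0.05 in edgeR's quasi-likelihood test. At an unadjusted p under 0.05 the test gave 799 genes (4.71%), DESeq2 gave 1011 genes with 3 past the adjusted threshold, and limma-voom gave 882 genes with 0 past it. Two-sided tests of the 10 genes gave 2 at an unadjusted p under 0.05, Il1rn and Pycard, both with the lower mean after pMCAO, against a background of 2.45% of all genes lower and 2.26% higher at that limit. Of the 10 genes 8 had a log2 fold change below 0, against 50.6% of all genes, and their median was −0.44, against −0.0059 over all genes. In none of the 10 did the groups separate, which over all genes occurred in 0.448% with all pMCAO libraries higher and in 0.537% with all lower. The part of the other cell types given above in these lower values was not tested. In bulk RNA from sorted cells, fewer cells of a type and less RNA per cell cannot be told apart.

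The IL-1 ligands Il1a and Il1b lie next to each other on chromosome 2 of GRCm38, both on the minus strand, Il1a at 129299610-129309972 and Il1b at 129364570-129371139, with 54597 bases between them. Their upstream sequences are shown because these genes varied more among the libraries than the other 8, each by more than 10-fold, and because both carry a TATA box at nearly the same place. The sequences below are the 150 bases before the RefSeq start site on GRCm38.p6, read 5′ to 3′ on the gene's strand, at chr2:129371140-129371289 for Il1b and chr2:129309973-129310122 for Il1a. Capitals mark TATAAA in both and, in Il1a, a match to the AP-1 motif TGANTCA.
Il1b: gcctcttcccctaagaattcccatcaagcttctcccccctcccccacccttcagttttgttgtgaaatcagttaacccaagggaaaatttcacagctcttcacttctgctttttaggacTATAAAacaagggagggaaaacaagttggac
Il1a: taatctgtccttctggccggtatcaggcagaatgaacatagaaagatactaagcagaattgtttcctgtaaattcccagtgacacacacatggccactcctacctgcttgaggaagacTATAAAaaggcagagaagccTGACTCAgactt
TATAAA, searched on the gene's strand alone, began 31 bases before the start of Il1b and 32 bases before that of Il1a. It was found in 7.59% of the 32851 windows of 250 bases before mouse start sites, and among the 10 genes in Il1a and Il1b alone. The AP-1 match in Il1a lay 12 to 6 bases before the start. TGANTCA, searched on both strands, was found in 6.75% of windows and also in that of Il1rn. A match of letters is a description and not a measured binding site.

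Il1b, which encodes the precursor of IL-1β, was at 536, 1311, 315, 2525 and 189 CPM in sham replicates 1 to 5 and at 288, 1064, 748, 174 and 158 CPM in pMCAO replicates 1 to 5. The highest value was that of sham replicate 4 and the lowest that of pMCAO replicate 5, a 16.0-fold range, and 3 of the 5 pMCAO libraries lay within the sham range. The means were 975 ± 970 CPM in sham and 486 ± 402 CPM in pMCAO libraries (SD, n = 5), a log2 fold change of −1.003 (SE 0.72, 95% interval −2.56 to 0.55, adjusted p = 0.922 in edgeR). The difference between the groups was thus smaller than the spread among sham libraries, which covered 13.4-fold. Without sham replicate 4, the log2 fold change was −0.29.

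Il1a, which encodes IL-1α, was at 9.46, 18.0, 7.29, 21.2 and 9.43 CPM in sham replicates 1 to 5 and 13.9, 8.19, 7.98, 1.80 and 4.68 CPM in pMCAO replicates 1 to 5. As for Il1b, sham replicate 4 was the highest and sham replicate 2 the next, while pMCAO replicates 4 and 5 lay below all sham libraries. The means of 13.1 ± 6.13 and 7.32 ± 4.53 CPM gave a log2 fold change of −0.85 (SE 0.49, 95% interval −1.90 to 0.21, adjusted p = 0.922), over a range of 11.7-fold among all libraries. The value of pMCAO replicate 4 rested on 22 counts, for which an exact Poisson interval is 1.13 to 2.73 CPM. This interval covers counting error only.

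**Figure D1:**
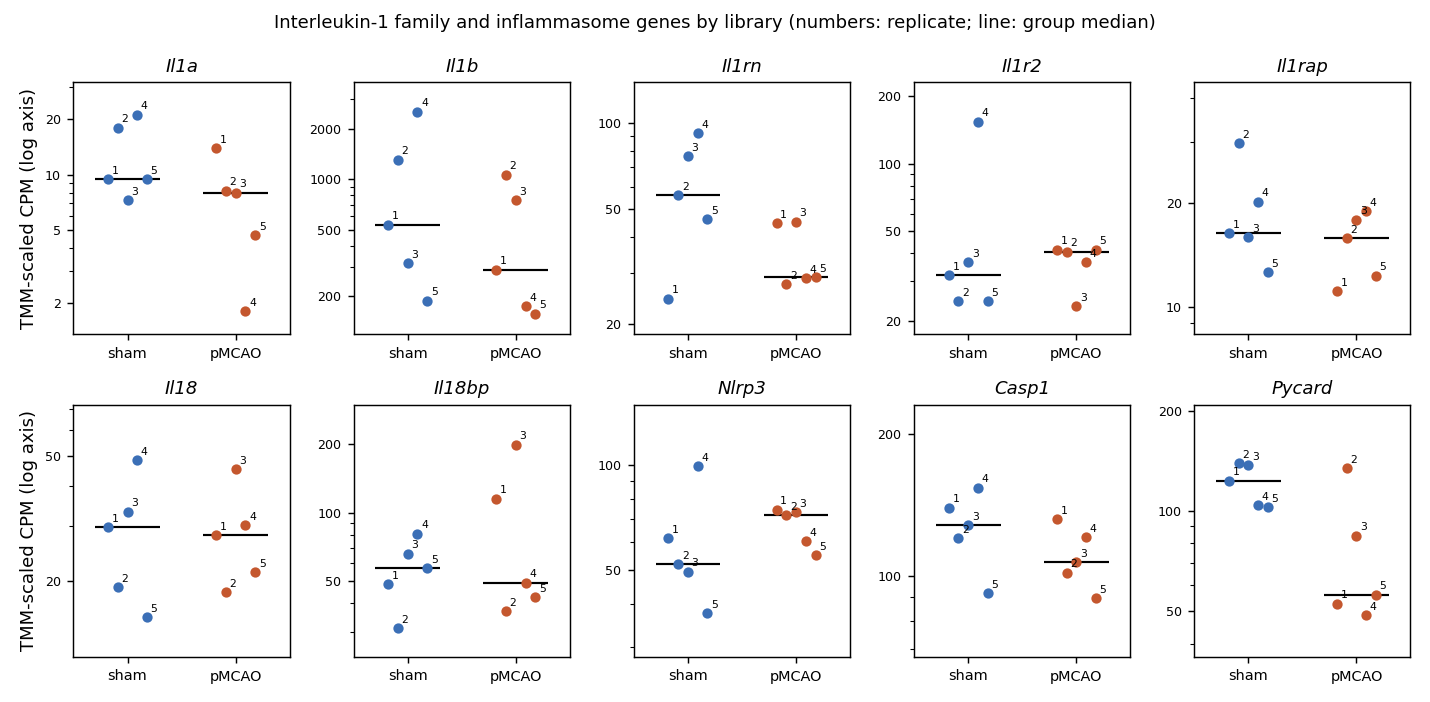
Levels of the 10 genes in each library, in TMM-scaled CPM on a log axis, with 1 panel per gene, points numbered by replicate, sham in blue, pMCAO in orange and a line at each group median. Sham replicate 4 is the highest library for 7 of the 10 genes, and the groups overlap in all 10 panels.

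Il1rn, on chromosome 2 at 24336853-24351494, encodes the IL-1 receptor antagonist. It was at 24.5, 56.1, 76.4, 92.1 and 46.2 CPM in sham replicates 1 to 5 and at 44.7, 27.5, 45.3, 28.9 and 29.1 CPM in pMCAO replicates 1 to 5. All pMCAO libraries lay below 4 of the 5 sham libraries and above sham replicate 1, the lowest of all 10. The means were 59.1 ± 26.3 and 35.1 ± 9.05 CPM, a log2 fold change of −0.75 (SE 0.31, 95% interval −1.43 to −0.070), with an unadjusted p of 0.0332 and an adjusted p of 0.922. Its difference lay between −0.95 and −0.54 when any library was left out. The unadjusted p was above 0.05 in limma-voom (0.0566), with quality weights (0.114), with the replicate block (0.0664) and without sham replicate 3 or 4 or pMCAO replicate 2, 4 or 5.

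Il1r2, on chromosome 1 at 40074079-40125231, encodes the decoy receptor for IL-1. It was at 31.9, 24.4, 36.4, 154 and 24.4 CPM in sham replicates 1 to 5 and at 41.5, 40.5, 23.1, 36.5 and 41.4 CPM in pMCAO replicates 1 to 5. Sham replicate 4 stood apart from the other 9 libraries, which lay between 23.1 and 41.5 CPM. The log2 fold change was −0.56 (SE 0.48, 95% interval −1.61 to 0.49, adjusted p = 0.924), and it turned to 0.31 without sham replicate 4, so that no direction can be given.

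Il1rap, on chromosome 16 at 26581704-26730117, encodes the accessory protein shared by receptors of this family. It was at 16.3, 29.7, 16.0, 20.2 and 12.7 CPM in sham replicates 1 to 5 and at 11.1, 15.9, 17.9, 19.0 and 12.3 CPM in pMCAO replicates 1 to 5. Sham replicate 2 was the highest and pMCAO replicates 1 and 5 the lowest, with the other libraries interspersed. The log2 fold change was −0.31 (SE 0.26, 95% interval −0.89 to 0.26, adjusted p = 0.922).

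Il18, on chromosome 9 at 50554827-50581840, encodes the precursor of IL-18. It was at 29.6, 19.1, 33.2, 48.2 and 15.4 CPM in sham replicates 1 to 5 and at 28.0, 18.5, 45.3, 30.1 and 21.4 CPM in pMCAO replicates 1 to 5. All pMCAO libraries lay within the sham range. The means of 29.1 ± 12.9 and 28.7 ± 10.4 CPM gave a log2 fold change of −0.024 (SE 0.33, adjusted p = 0.999), with a 95% interval of −0.73 to 0.69 that leaves room for a difference of either sign, and the sign itself depended on the normalization.

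Il18bp, on chromosome 7 at 102014885-102018690, encodes a soluble protein that binds IL-18 and keeps it from its receptor. It was at 48.5, 31.0, 66.0, 80.9 and 57.1 CPM in sham replicates 1 to 5 and at 115, 37.0, 199, 49.3 and 42.6 CPM in pMCAO replicates 1 to 5. Of the pMCAO libraries, 2 were above all sham libraries and 3 lay among them, so that the spread was larger after pMCAO, with means of 56.7 ± 18.7 and 88.6 ± 69.3 CPM. The log2 fold change of 0.64 (SE 0.45, 95% interval −0.33 to 1.62, adjusted p = 0.922) was the highest of the 10 genes. Without pMCAO replicate 3 it was 0.099.

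Nlrp3, on chromosome 11 at 59541568-59566956, encodes the inflammasome sensor. It was at 61.6, 52.0, 49.4, 99.2 and 37.6 CPM in sham replicates 1 to 5 and at 74.5, 71.7, 73.2, 60.5 and 55.0 CPM in pMCAO replicates 1 to 5. The pMCAO libraries covered a 1.35-fold range and all lay within the 2.64-fold range of the sham libraries. The log2 fold change was 0.16 (SE 0.24, 95% interval −0.35 to 0.67, adjusted p = 0.952). Without sham replicate 4 it was 0.41.

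Casp1, on chromosome 9 at 5298517-5307265, encodes caspase-1, the protease that cuts pro-IL-1β and pro-IL-18. It was at 139, 120.0, 128, 154 and 91.8 CPM in sham replicates 1 to 5 and at 132, 102, 107, 121 and 89.7 CPM in pMCAO replicates 1 to 5. It varied least of the 10 genes among the libraries, by 1.71-fold. Its log2 fold change was −0.20 (SE 0.17, adjusted p = 0.922), and the 95% interval of −0.57 to 0.17 was the narrowest of the 10.

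Pycard, which encodes the adaptor ASC, lies on the minus strand of chromosome 7 at 127989708-127993867. It was at 123, 139, 137, 104 and 103 CPM in sham replicates 1 to 5 and at 52.8, 134, 84.3, 48.7 and 56.2 CPM in pMCAO replicates 1 to 5. The 4 pMCAO libraries other than replicate 2 lay below all sham libraries, while pMCAO replicate 2 lay among the higher sham libraries. The means of 121 ± 17.4 and 75.3 ± 35.9 CPM gave a log2 fold change of −0.69 (SE 0.27, 95% interval −1.27 to −0.10), with an unadjusted p of 0.0247 and an adjusted p of 0.922. Its difference ranged from −1.01 without pMCAO replicate 2 to −0.58 without pMCAO replicate 4. The unadjusted p was above 0.05 without sham replicate 2 or 3 or pMCAO replicate 1, 4 or 5, with 0.0624 the highest. It was lower in limma-voom (0.0128), in limma-voom with quality weights (0.000767) and with the replicate block in edgeR (0.00219). The adjusted p in these was 0.889, 0.373 and 0.565.

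The upstream sequence of Pycard is shown as that of the gene with the smallest p among the 10. The 150 bases before its start site, at chr7:127993868-127994017 of GRCm38.p6, hold 2 matches in capitals.
Pycard: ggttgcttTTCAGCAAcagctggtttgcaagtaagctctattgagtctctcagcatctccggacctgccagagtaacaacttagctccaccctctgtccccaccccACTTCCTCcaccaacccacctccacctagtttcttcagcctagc
The first, 142 to 135 bases before the start, is a match to the C/EBP motif TTGCNNAA on the opposite strand, found in 9.56% of all windows of 250 bases and among the 10 genes also in Il18bp. The second, 44 to 37 bases before the start, is a match on the opposite strand to GAGGAAGT, a site of the kind bound by the myeloid factor PU.1, found in 2.44% of windows and in no other of the 10 genes. The NF-κB motif, searched as a consensus of 10 bases, was found among the 10 genes in Il1rn alone, against 1.41% of windows, and TGACGT, the core of the CREB site, was in none of them, against 6.47% of windows. All 10 genes were matched, with 13 start sites, and every motif other than TATAAA was searched on both strands.

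**Figure D2:**
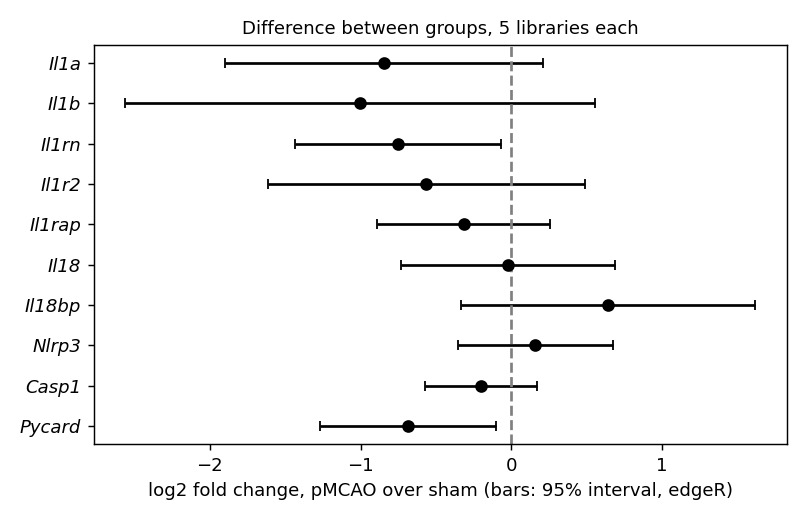
Log2 fold change of pMCAO over sham libraries for the 10 genes (points) with 95% intervals from edgeR (bars), 5 libraries in each group. The interval crosses 0 for all but Il1rn and Pycard, and no gene passes after adjustment over all 16949 genes.

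To compare levels between genes, counts were divided by the length of each gene's exons and scaled to the same total in every library (TPM). By this measure Il1b was the highest of the 10 genes, with a median of 393 TPM over the 10 libraries (180 to 1970 TPM), and exceeded the next gene, Casp1 (median 153 TPM), in 10 of 10 libraries although their ranges overlapped. Casp1 was above Il18 in 10 of 10 libraries with no overlap of their ranges, at 101 to 188 TPM against 26.7 to 69.6 TPM. Below these, the medians were 52.6 TPM for Il18, 46.7 for Pycard, 38.8 for Il18bp, 34.2 for Il1r2, 26.2 for Nlrp3, 13.4 for Il1rn, 7.32 for Il1a and 2.47 for Il1rap, and the ranges of each pair of neighbours in this order overlapped. The middle of the order rests on the annotation of untranslated exons, which make up most of the 3800 exonic bases of Pycard, with 579 coding bases, and of the 5535 exonic bases of Il1rn, with 563. With coding length in place of exonic length, Pycard came next after Il1b at a median of 160.1 TPM, above Casp1 at 93.3 TPM, and Il1rn rose in the order to 69.2 TPM, while Il1b remained the highest at 464 TPM and Il1a and Il1rap remained the lowest at 8.99 and 5.90 TPM.

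**Figure D3:**
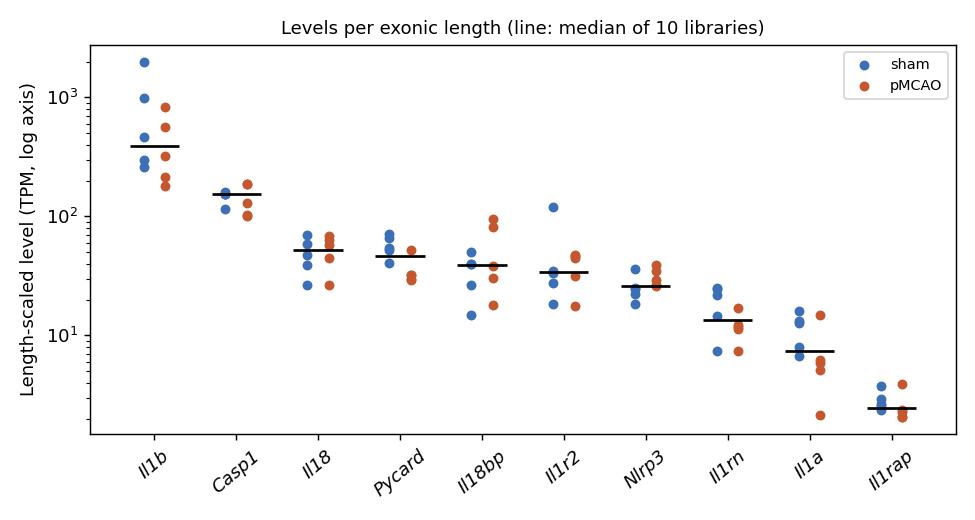
Levels per exonic length (TPM, log axis) of the 10 genes in order of their median, with 1 point per library, sham in blue, pMCAO in orange and a line at the median of 10 libraries. Il1b is above Casp1 in every library, and the libraries of Il1b spread from 180 to 1970 TPM.

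Ratios between functional partners were computed within each library on the length-scaled levels. Their absolute size depends on the lengths used, but the differences between libraries do not. The log2 ratio of the antagonist Il1rn to Il1b was −5.11 ± 1.40 in sham and −4.94 ± 1.22 in pMCAO libraries (SD, n = 5), so that Il1b exceeded its antagonist in all 10 libraries. With coding lengths it did so too, with Il1rn at 0.037 to 0.35 of Il1b. The log2 ratio of Il18bp to Il18 was −0.55 ± 0.51 in sham and −0.18 ± 0.66 in pMCAO libraries, with sham replicate 5 and pMCAO replicates 1 and 3 above 0 and the other 7 libraries below. Since Il18bp is the numerator, a high Il18bp raises this ratio by construction. The 2 pMCAO libraries with the highest Il18bp were among the 3 in which the binding protein exceeded Il18 on this scale. With coding lengths it exceeded Il18 in all 10 libraries, by 1.42-fold to 3.86-fold.

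The log2 ratio of Il1a to Il1b was −5.77 ± 0.95 in sham and −5.93 ± 1.12 in pMCAO libraries, and that of the decoy Il1r2 to Il1rap was 3.72 ± 1.15 and 3.83 ± 0.61. In both, the groups overlapped almost fully. The log2 ratio of Casp1 to Nlrp3 was 2.57 ± 0.29 in sham and 2.15 ± 0.20 in pMCAO libraries, a difference of −0.42. The sham libraries other than replicate 4 lay above all pMCAO libraries in this ratio, while sham replicate 4, at 2.07, lay among them, so that the groups overlapped in this ratio too.

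**Figure D4:**
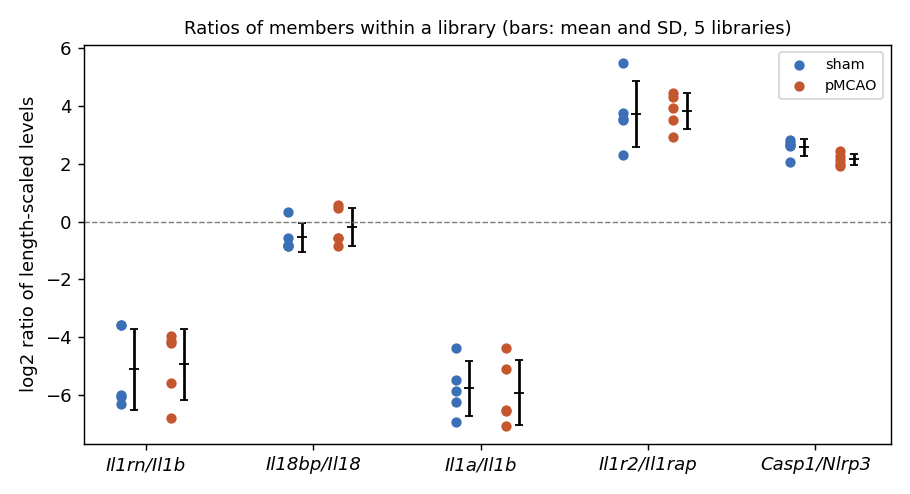
Log2 ratios of length-scaled levels of paired genes within each library (points; sham blue, pMCAO orange), with the mean and SD of 5 libraries (bars) and a dashed line at equal levels. The groups overlap in all 5 ratios, least in Casp1/Nlrp3, where only sham replicate 4 lies among the pMCAO libraries.

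Il1b was compared with 6 measures and Il18, Casp1 and Pycard with each other or with markers in 10 relations over the 10 libraries, on log2 CPM, with permutation tests adjusted over the 10. The closest relation was that of Il1b with the mean level of 13 dissociation response genes, immediate early and heat shock genes such as Fos, Jun, Atf3 and Hspa1a that are known to be induced when tissue is digested into single cells. Pearson's r was 0.81 (permutation p = 0.00367, adjusted p = 0.0367) and Spearman's rho 0.77 (permutation p = 0.0124, adjusted p = 0.124). Without sham replicates 2 and 4, the libraries farthest from the median of Il1b, r was 0.71, and for deviations from the group means it was 0.82. When sham replicate 1, 3 or 4 or pMCAO replicate 4 or 5 was left out, the adjusted p was above 0.05, and r was 0.68 at the lowest, without sham replicate 4. Taken singly, the 13 genes ranged in r with Il1b from 0.023 for Fosb to 0.967 for Nr4a1. Jun was at 0.46, Fos at 0.57, Hspa1a at 0.63 and Atf3 at 0.88, given as descriptions with no test. The 13 genes had a summed level of 5183 to 17178 CPM in sham libraries, where replicate 4 was the highest, and of 7362 to 13833 CPM in pMCAO libraries. The part of tissue dissociation in the level of Il1b was not tested.

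Among the other relations of Il1b, that with Il1a had r = 0.69 (permutation p = 0.0208, adjusted p = 0.0891) and rho = 0.70 (permutation p = 0.0308, adjusted p = 0.136). Its r was 0.43 without sham replicates 2 and 4 and 0.65 within groups. For Il1b with Nlrp3, r was 0.62 (permutation p = 0.0562, adjusted p = 0.112) and rho 0.43 (permutation p = 0.220, adjusted p = 0.440), with r at 0.59 without the same 2 libraries and 0.79 within groups. With Il1rn, r was 0.43 and rho 0.36 (permutation p = 0.215 and 0.312, adjusted p = 0.307 and 0.520), and with Il1r2, r was 0.43 and rho −0.091 (permutation p = 0.210 and 0.812, adjusted p = 0.307 and 0.812). Both of these values of r rested on sham replicates 2 and 4, without which they were −0.12 and −0.15. With the neutrophil markers r was −0.31 and rho −0.28 (permutation p = 0.374 and 0.426, adjusted p = 0.468 and 0.609), and without sham replicates 2 and 4 r was −0.0025. In that mean of log2 levels, 4 of the 6 markers were at 12.2 CPM or less in every library, and the other 2, Mmp9 and Csf3r, had r = 0.47 and 0.44 with Il1b, given as descriptions with no test.

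For Il18 with Il18bp, r was 0.69 (permutation p = 0.0267, adjusted p = 0.0891) and rho 0.64 (permutation p = 0.0531, adjusted p = 0.136), and without sham replicates 4 and 5, the libraries farthest from the median of Il18, r was 0.84. For Il18 with Casp1, r was 0.65 (permutation p = 0.0440, adjusted p = 0.110) and rho 0.64 (permutation p = 0.0544, adjusted p = 0.136), and r was 0.32 without the same 2 libraries. Casp1 and Pycard had an r of 0.16 and a rho of 0.10 (permutation p = 0.655 and 0.783, adjusted p = 0.728 and 0.812). Il18 and the epithelial markers had an r of 0.087 and a rho of −0.12 (permutation p = 0.807 and 0.759, adjusted p = 0.807 and 0.812). A relation of Il18 to epithelial RNA was thus not detectable with 10 libraries. Within groups r was 0.70 for Il18 with Il18bp and 0.72 for Il18 with Casp1.

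**Figure D5:**
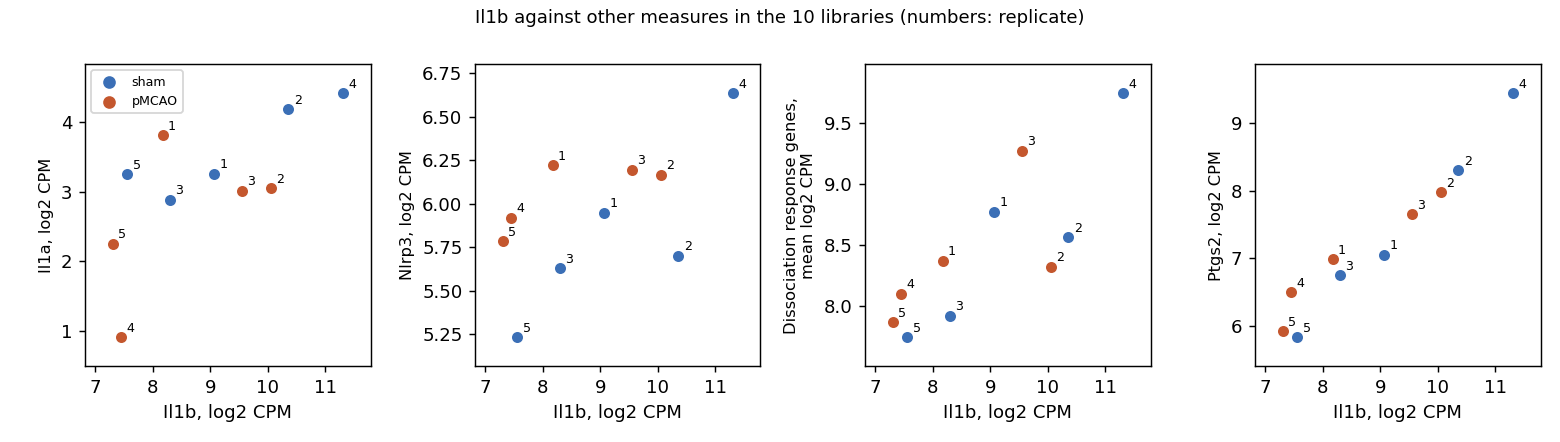
Il1b (log2 CPM) in each of the 10 libraries against Il1a, Nlrp3, the mean level of 13 dissociation response genes and Ptgs2 (all log2 CPM), with points numbered by replicate, sham in blue and pMCAO in orange. Sham replicate 4 is at the top right of every panel, and Ptgs2 follows Il1b closely in both groups.

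The genes most like Il1b over the 10 libraries, among 9372 genes with a mean log2 CPM of at least 3, were Ptgs2 (r = 0.972), Nr4a1 (0.967), Gadd45b (0.961), Ubald2 (0.939) and Cd83 (0.930). These values are descriptions of the highest of many correlations and carry no test. Ptgs2 encodes cyclooxygenase-2, Nr4a1 an orphan nuclear receptor, Gadd45b a stress response protein and Cd83 a surface protein of activated antigen-presenting cells, while Nr4a1 is also among the 13 dissociation response genes. Ptgs2 was at 133, 315, 107, 695 and 56.9 CPM in sham replicates 1 to 5 and at 126, 251, 201, 90.0 and 60.4 CPM in pMCAO replicates 1 to 5, an order of libraries close to that of Il1b. Within groups r was 0.974 for Ptgs2 and 0.964 for Nr4a1. None of the 5 genes passed the threshold between the groups (adjusted p of 0.922 to 0.925 in edgeR), with log2 fold changes from −0.84 to −0.25. Il1a ranked 308th and Nlrp3 579th among the 9372 genes.

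Of 12 other ligands and receptors of the family, 7 were tested, with 0 past the threshold, 0 at an unadjusted p under 0.05 and a median log2 fold change of −0.060. Il1r1, the signalling receptor of IL-1, was at 2.65 ± 1.25 CPM in sham and 3.17 ± 3.30 CPM in pMCAO libraries, and the ligand Il33 at 1.27 ± 1.40 and 0.62 ± 0.82 CPM. Il1rl1, the IL-33 receptor, was at 36.4 ± 26.4 and 31.6 ± 20.5 CPM (log2 fold change −0.20, SE 0.49). The IL-18 receptor chains Il18r1, at 7.57 ± 4.10 and 7.11 ± 4.36 CPM, and Il18rap, at 13.3 ± 12.3 and 12.8 ± 3.26 CPM, and the inhibitory receptor Sigirr, at 5.46 ± 2.33 and 5.23 ± 1.63 CPM, had log2 fold changes between −0.097 and −0.059. The markers of T cells and innate lymphoid cells, which are known to carry several of these receptors, had a lower mean after pMCAO in 10 of 10 genes, with a median log2 fold change of −0.78 and 0 at an unadjusted p under 0.05. Their part in the levels of the receptors was not tested.

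Of 11 genes of signalling below the IL-1 receptor, 0 passed the threshold and 0 had an unadjusted p under 0.05, with 10 higher and 1 lower and a median of 0.090. The gene below 0 was Myd88, the adaptor of the receptor, at 46.5 ± 5.72 and 36.7 ± 6.51 CPM with a log2 fold change of −0.34 (SE 0.17, unadjusted p = 0.0657, adjusted p = 0.922 in edgeR). Irak3, which encodes a kinase-like inhibitor of this signalling, was at 22.3 ± 1.41 and 24.1 ± 5.31 CPM (log2 fold change 0.11, SE 0.18).

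Of 21 further inflammasome sensors and effectors, 20 were tested, with 12 above 0 and 8 below, a median log2 fold change of 0.064 and 0 past the threshold. At an unadjusted p under 0.05 there was 1, Nlrp6, an inflammasome sensor known from the intestinal epithelium, at 15.3 ± 4.95 and 6.48 ± 4.68 CPM (log2 fold change −1.24, SE 0.47, unadjusted p = 0.0204, adjusted p = 0.922 in edgeR). The epithelial markers beside it had a lower mean in 10 of 12 genes, with a median of −0.49 and 0 at an unadjusted p under 0.05, and their part in the level of Nlrp6 was not tested. Among the other genes of this list, Aim2, a sensor for cytosolic DNA, was at 130.2 ± 42.8 and 144 ± 19.9 CPM and Nlrp1b at 92.6 ± 72.2 and 118 ± 33.6 CPM. Nlrc4, part of the inflammasome that responds to bacterial flagellin and secretion systems, was at 67.5 ± 24.3 and 74.6 ± 27.8 CPM. In that order, the log2 fold changes were 0.14, 0.35 and 0.14.

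The ATP receptor P2rx7, a route to activation of NLRP3, was at 198 ± 31.0 and 199 ± 39.0 CPM, a log2 fold change of 0.0065 with a 95% interval of −0.37 to 0.39. Txnip, which encodes a binding partner of NLRP3, was at 382 ± 71.4 and 423 ± 52.5 CPM and Nek7, a kinase that NLRP3 needs to assemble, at 138 ± 31.3 and 174 ± 37.3 CPM, with log2 fold changes of 0.15 (SE 0.17) and 0.34 (SE 0.20). Downstream, Gsdmd, which encodes the pore protein that caspase-1 cuts, was at 81.2 ± 17.0 and 82.6 ± 22.2 CPM (log2 fold change 0.023, SE 0.21), and the caspases Casp4 and Casp8 had log2 fold changes of −0.14 (SE 0.27) and −0.11 (SE 0.16).

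Of 12 early response genes of NF-κB signalling, 10 were below 0 and 2 above, with a median log2 fold change of −0.23, 0 past the threshold and 0 at an unadjusted p under 0.05. The log2 fold change of Ptgs2 was −0.84 (SE 0.61). Tnf was at 27.4 ± 11.4 and 24.3 ± 6.85 CPM and Il6 at 3.79 ± 1.62 and 3.41 ± 1.30 CPM, with log2 fold changes of −0.18 (SE 0.29) and −0.15 (SE 0.46). The inhibitors of NF-κB Nfkbia and Tnfaip3 had log2 fold changes of −0.22 (SE 0.35) and −0.038 (SE 0.32). Sham replicate 4 held the highest value of Tnf, Nfkbia and Tnfaip3, as it did of Il1b, but for Il6, at 1.76 CPM, it was the lowest of the sham libraries.

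The count of genes called was 0 also without the libraries that stood apart. Without the 2 libraries with Xist, 0 of the 10 genes passed the threshold and 0 had an unadjusted p under 0.05, with log2 fold changes of −0.77 for Il1rn and −0.63 for Pycard, and 581 genes overall had an unadjusted p under 0.05. Without both pooled libraries, 0 of the 10 passed, and 2 had an unadjusted p under 0.05. These were Il1rn, at a log2 fold change of −1.05 (unadjusted p = 0.00304 in edgeR), and Il1a, at −1.30 (unadjusted p = 0.0339 in edgeR). Pycard, at −0.58, was not among them (unadjusted p = 0.0945 in edgeR), and the adjusted p of all 3 was 0.9999 in edgeR. Reads of antisense neighbours cannot be told apart from those of Il1a, Il1b, Il1rap, Il18bp and Pycard where exons overlap, since the strand setting of the counting was not given, and these overlaps span between 25 bases, in Il1b, and 552 bases, in Il1rap.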

How the data were processed

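For each of the 5 sham and 5 pMCAO libraries the authors deposited raw counts and their own CPM. Their columns of log2 fold change, average expression, p-value and FDR were not used. The submitters' processing notes name STAR, featureCounts, limma and GRCm38/mm10, without versions. The strand setting and collection days are not given in the sources used here.

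From the counts, genes were filtered with filterByExpr, scaled by TMM and tested over the whole table in edgeR 4.0.16 (quasi-likelihood, no covariate) under R 4.3.3, with Benjamini-Hochberg adjustment and a threshold of 0.05. Log2 CPM used a prior count of 2. TPM used GENCODE M21 exon unions, found for 17193 genes. Relations used 100000 permutations. Upstream sequences come from RefSeq (GRCm38.p6). The fit was tested on simulated data. The smallest chi-square per degree of freedom between any 2 of the libraries was 39.2, far above sampling noise.

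The 10 genes, the pathway and marker lists and the tests were chosen with earlier results of these data known. Named genes are the 10, pathway genes picked by name, any pathway gene with an unadjusted p under 0.05, and the 5 genes most like Il1b. Replicates are those the sample titles give, so that p-values measure the spread between these libraries. Alternatives were upper-quartile scaling, DESeq2 size factors, DESeq2 1.42.0, limma-voom (limma 3.58.1) with and without quality weights, no filter, over 1 CPM in at least 5 libraries, a replicate block, CPM on total counts, a prior count of 0.5, longest transcripts, and leaving out libraries. Coding length was added after seeing the data.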

Additional observations from a re-analysis of the deposited data

Results flagged for a closer look

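In 6 of 74 groups of 5 libraries, the highest or lowest library lay apart from the rest, with a gap to its nearest neighbour of more than 0.71 of the group's range (Dixon's critical value). About 1 in 20 groups, or 3.7 of 74, would do so by chance. For Il1r2 this was sham replicate 4, the highest, at 0.782, and pMCAO replicate 3, the lowest, at 0.781. For Aim2 it was sham replicate 4, the highest, with 0.753, and for Nek7 pMCAO replicate 3, the lowest, with 0.853. For the ratio of Il18bp to Il18 it was sham replicate 5, the highest, with 0.75, and for the ratio of Casp1 to Nlrp3 sham replicate 4, the lowest, with 0.735. Sham replicate 4 was thus named in 3 of the 6. The cause of these gaps was not tested.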

How the results depend on the processing

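No alternative brought any of the 10 genes past the adjusted threshold (smallest adjusted p 0.373, for Pycard in limma-voom with quality weights), and DESeq2 called 3 genes overall against 0 in edgeR and gave no adjusted p for Il1r2. The direction held under every alternative for Il1a, Il1b, Il1rn, Il1rap, Il18bp, Nlrp3, Casp1 and Pycard. The log2 fold change of Il18 turned to 0.0018 with upper-quartile scaling and 0.025 with the replicate block, and ranged from −0.25 to 0.22 when single libraries were left out. That of Il1r2 turned to 0.20 in limma-voom with quality weights and ranged from −0.76 to 0.31. Leaving out single libraries gave ranges of −1.51 to −0.29 for Il1b, −1.21 to −0.60 for Il1a, 0.099 to 0.84 for Il18bp and 0.025 to 0.41 for Nlrp3.

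With CPM on total counts in place of TMM, r turned to −0.074 for Casp1 with Pycard and −0.10 for Il18 with the epithelial markers, and was 0.71 (adjusted p = 0.162) for Il1b with the dissociation response genes. Leaving out single libraries, r ranged from −0.071 to 0.31 for Casp1 with Pycard, −0.055 to 0.23 for Il18 with the epithelial markers, −0.36 to 0.61 for Il1b with Il1r2, 0.68 to 0.88 for Il1b with the dissociation response genes, 0.59 to 0.78 for Il1b with Il1a, 0.56 to 0.77 for Il18 with Il18bp and 0.51 to 0.85 for Il18 with Casp1. The last 3 passed an adjusted p of 0.05 without sham replicate 5 or pMCAO replicate 1 (both Il1b with Il1a and Il18 with Il18bp) or without pMCAO replicate 3 (Il18 with Casp1). The causes were not tested.

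With longest transcripts, medians were 25.9 TPM for Il1rn and 5.52 TPM for Il1rap. Whether the replicate numbers pair the libraries is not given by the labels and was not settled by the values. Same-numbered libraries correlated at −0.0055 to 0.37 in their deviations, with a mean of 0.197 and 3 of 5 above 0.1. With the replicate block, 0 genes were called, 1303 had an unadjusted p under 0.05 against 799, and Pycard had a log2 fold change of −0.79. The smallest adjusted p of any gene in edgeR was 0.173 with the block and 0.922 without it. Among the 10 genes the lowest count in any library was 22, of Il1a in pMCAO replicate 4. The number of the 10 with an unadjusted p under 0.05 was 2 in edgeR and DESeq2, 1 in limma-voom and with the replicate block, and between 0 and 2 when libraries were left out.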
